A study of Mus musculus with 2 samples.

Results

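Resident-like macrophages were 1186 of the 22084 cells kept from the infarct zone of mouse hearts (22774 barcodes in all) and 1186 of the 7185 macrophages in the comparison. A macrophage here was a cell with at least 30 UMIs (molecules counted once each) of the complement genes C1qa, C1qb and C1qc per 10000, and fewer than 3 UMIs of the cycling genes Mki67, Top2a and Birc5. Every macrophage received 4 scores, each the z-scored logarithm of a summed gene set per 10000 UMIs. The R score summed Cd163, Cbr2, Folr2 and Timd4, the L score Mmp12, Gpnmb and Atp6v0d2, the M score the MHC class II genes H2-Aa, H2-Ab1 and H2-Eb1, and the G score Gdf15, Cxcr4 and Pla2g7. A cell was resident-like when R was the highest of the 4 and over 0.5. The members were thus chosen by measured RNA, so levels of the 13 score genes describe the choice, and L, M and G genes are low in members by construction.

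The GFPhi library and the GFPlo library were the 2 samples, 1 per sorted fraction. Both came from p16-2A-CreER;R26-mTmG mice with myocardial infarction, gavaged with tamoxifen on day 5 after surgery and killed on day 7. In these mice Cre recombinase made from the p16 (Cdkn2a) locus is active only after tamoxifen, and it switches a cell and its descendants for good from membrane tomato to membrane GFP. Both fractions therefore carry the injury, the alleles and the drug, and neither an uninjured heart nor an animal without Cre was among the samples. The labels do not state the number, age or sex of the animals behind each library. Cardiomyocytes were spun out, erythrocytes were lysed, dead cells were removed, and the cells were sorted on GFP. The study's title concerns the chemokine Ccl8 made by p16-positive cells and the recruitment of cytotoxic lymphocytes.

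Many resident macrophages of the heart are seeded before birth and renew themselves locally, whereas blood monocytes enter the infarct in large numbers and become macrophages there. Resident cells are known for scavenger receptors that take up haemoglobin complexes, apoptotic cells and debris, for the hyaluronan receptor Lyve1, and for low expression of the monocyte receptor Ccr2. Of the score genes, Cd163 is the receptor for haemoglobin bound to haptoglobin, Cbr2 a carbonyl reductase, Folr2 folate receptor beta and Timd4 a receptor for phosphatidylserine on dying cells.

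The promoters of the 4 score genes and of Ccl8, the gene of the study's title, are shown because the rule or the study's title names these 5 genes. Each sequence is the 250 bases before the RefSeq transcription start (GRCm38.p6), 5′ to 3′ on the gene's strand. Capitals mark the MAF core TGCTGA or the PU.1 core GAGGAA, searched on both strands, MAF and PU.1 being transcription factors of macrophages. The regions are chr6:124304401-124304650 (plus strand) for Cd163, chr11:120732022-120732271 (minus) for Cbr2, chr7:101857191-101857440 (minus) for Folr2, chr11:46810549-46810798 (plus) for Timd4 and chr11:82114935-82115184 (plus) for Ccl8.
Cd163: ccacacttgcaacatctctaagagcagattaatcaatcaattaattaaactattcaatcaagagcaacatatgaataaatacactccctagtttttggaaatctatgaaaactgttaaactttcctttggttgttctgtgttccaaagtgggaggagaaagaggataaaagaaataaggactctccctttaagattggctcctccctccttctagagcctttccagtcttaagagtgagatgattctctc
Cbr2: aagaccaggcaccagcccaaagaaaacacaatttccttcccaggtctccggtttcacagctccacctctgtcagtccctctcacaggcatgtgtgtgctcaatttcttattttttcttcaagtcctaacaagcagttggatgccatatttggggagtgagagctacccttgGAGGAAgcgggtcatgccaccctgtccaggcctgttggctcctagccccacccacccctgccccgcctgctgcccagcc
Folr2: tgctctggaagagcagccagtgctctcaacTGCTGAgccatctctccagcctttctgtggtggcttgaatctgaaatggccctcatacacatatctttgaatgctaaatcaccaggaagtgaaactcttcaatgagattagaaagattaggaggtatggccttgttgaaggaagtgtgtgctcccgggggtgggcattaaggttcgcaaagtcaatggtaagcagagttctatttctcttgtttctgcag
Timd4: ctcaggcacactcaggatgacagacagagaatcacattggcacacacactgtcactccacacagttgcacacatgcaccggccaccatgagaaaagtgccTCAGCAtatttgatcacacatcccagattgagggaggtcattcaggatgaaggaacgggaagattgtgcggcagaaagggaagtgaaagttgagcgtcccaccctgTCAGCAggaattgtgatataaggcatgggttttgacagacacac
Ccl8: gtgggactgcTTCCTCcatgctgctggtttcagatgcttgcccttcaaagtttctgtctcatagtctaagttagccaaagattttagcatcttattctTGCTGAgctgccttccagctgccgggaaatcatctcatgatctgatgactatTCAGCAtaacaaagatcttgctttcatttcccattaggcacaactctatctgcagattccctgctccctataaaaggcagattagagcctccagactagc
The MAF core stood in 3 of these 5 promoters, with 2 matches each in Timd4 and Ccl8 and 1 in Folr2, and in 16.1% of 32851 mouse promoters of the same length. The PU.1 core stood in the promoters of Cbr2 and Ccl8, and in 23.3% of all promoters. Cd163 had neither in this window. All 12 genes looked up were found in the RefSeq table; 5 of their promoters held the MAF core and 7 the PU.1 core. A match is a string of letters and not a bound site.

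In GFPhi, 1179 of 7137 macrophages were resident-like, a share of 16.5% (exact 95% Clopper-Pearson interval 15.7 to 17.4%), or 11.6% of the 10125 GFPhi cells. In GFPlo, 7 of 48 macrophages were resident-like, 14.6% (6.07 to 27.8%), or 0.0585% of 11959 cells (0.0235 to 0.121%). The intervals of the shares among macrophages overlapped, while macrophages made up 70.5% of the GFPhi cells and 0.401% of the GFPlo cells. The intervals here and below cover counting error only: with 1 library per fraction there was no replicate, no test was possible, and cells of a library are not replicates. The deposited tables held 91343549 UMIs over 10430 barcodes in GFPhi and 104855204 UMIs over 12344 barcodes in GFPlo. The libraries shared 94 barcode sequences, and 12 of the GFPhi members carried one; without those members the Ccl8 log2 ratio given below was again 3.27.

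The 7 GFPlo members held 33114 UMIs in all, between 1337 and 8091 per cell. Among them were 112 UMIs of C1qa, 71 of Pf4 in 6 cells, 15 of Folr2 in 5 cells, 14 of F13a1 in 6 cells, 14 of Lyve1 in 2 cells, 6 of Cbr2 in 4 cells, 4 of Ccl8 in 1 cell, 1 of Timd4 and 0 of Cd163. These counts were too low for a ratio, and all further values are from the GFPhi library.

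The GFPhi members had a median of 6605 UMIs (527 to 38444) and 2194 genes per cell, against 6669 UMIs and 1986 genes in the other 5958 macrophages. Mitochondrial genes took a median of 2.62% of UMIs in members and 2.24% in other macrophages, and ribosomal protein genes 14.5% of summed UMIs in members and 17.3% in other macrophages. Among the other macrophages, 1531 had L, 1580 M and 1404 G as highest score, and 1443 had no score over 0.5. Depth differed more among those groups than between members and the rest: the medians were 9661 UMIs in the L group, 5898 in the M group, 6960 in the G group and 5752 in the cells with no high score.

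Levels are given as CPM, the UMIs of a gene per 1000000 UMIs summed over the cells of a group, and a ratio is members over the other macrophages, called others below, with an exact 95% interval. Cd163 (chromosome 6, 124304656 to 124330527, plus strand, mm10) stood at 163 CPM in members and 1.21 CPM in other macrophages. Cbr2 (chromosome 11, 120729489 to 120732114, minus strand) stood at 677 CPM in members and 13.9 CPM in other macrophages. Folr2 (chromosome 7, 101839988 to 101857194, minus strand) stood at 739 CPM in members and 47.0 CPM in other macrophages, among which the L group held most, at 86.2 CPM. Timd4 (chromosome 11, 46810800 to 46844332, plus strand) stood at 67.7 CPM in members and 0.893 CPM in other macrophages. Genes of the other 3 scores were lower in members, as the choice makes them. Of the L genes, Mmp12 was 26.3 CPM in members and 344 CPM in others, Gpnmb 143 CPM in members and 959 CPM in others, and Atp6v0d2 17.3 CPM in members and 62.3 CPM in others. Of the M genes, H2-Eb1 was 338 CPM in members and 1902 CPM in others, H2-Aa 491 CPM in members and 2333 CPM in others, and H2-Ab1 303 CPM in members and 1405 CPM in others. Of the G genes, Gdf15 was 185 CPM in members and 992 CPM in others, Cxcr4 38.0 CPM in members and 91.2 CPM in others, and Pla2g7, which differed least, 163 CPM in members and 188 CPM in others.

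The score genes were unevenly spread over the members. A UMI of Folr2 was found in 1072 members (90.9%) and 17.2% of other macrophages, and of Cbr2 in 925 members (78.5%) and 7.86% of other macrophages. Cd163 was found in 459 members (38.9%) and 0.655% of other macrophages, and Timd4 in 282 members (23.9%) and 0.504% of other macrophages. All 4 genes were detected in 181 members (15.3%), 3 in 309, 2 in 398 and only 1 in 291 (24.7%). With every cell thinned to 1000 UMIs, which left 1154 members and 5719 other macrophages, Folr2 was detected in 48.5% of members, 3.13% of other macrophages, 2.08% of lymphocytes and 0.545% of endothelial cells, types that should lack it. Thinned Cd163 was detected in 14.8% of members, 0.0525% of other macrophages and in no lymphocyte or endothelial cell. The 100 lymphocytes, 96 of which had enough UMIs for thinning, and the 367 endothelial cells had median depths of 2014 and 10830 UMIs before thinning. When members were chosen by the other 3 score genes alone, the gene left out was still 65.8-fold (Cd163), 30.04-fold (Cbr2), 10.5-fold (Folr2) and 52.2-fold (Timd4) higher in members than in other macrophages.

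The R score of the members ran from 0.501 to 3.56 with a median of 1.99, with no gap at the threshold, and 397 other macrophages passed 0.5 but had a higher score elsewhere. The 50 members just inside (0.501 to 0.665) held 58 UMIs of Folr2, 25 of Cbr2, 3 of Timd4 and 1 of Cd163, and the 50 cells just outside (0.390 to 0.497) held 40 UMIs of Folr2, 23 of Cbr2, 3 of Timd4 and 4 of Cd163. Ccl8 was 210 CPM just inside and 350 CPM just outside, F13a1 174 CPM inside and 169 CPM outside, and Mrc1 342 CPM inside and 327 CPM outside. F13a1 and Mrc1 were thus at near-equal levels on both sides of the threshold, and Ccl8 was lower just inside it. Another score was also over 0.5 in 296 members (25.1%), namely M in 150, G in 104 and L in 86, and 883 members had R alone.

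**Figure D1:**
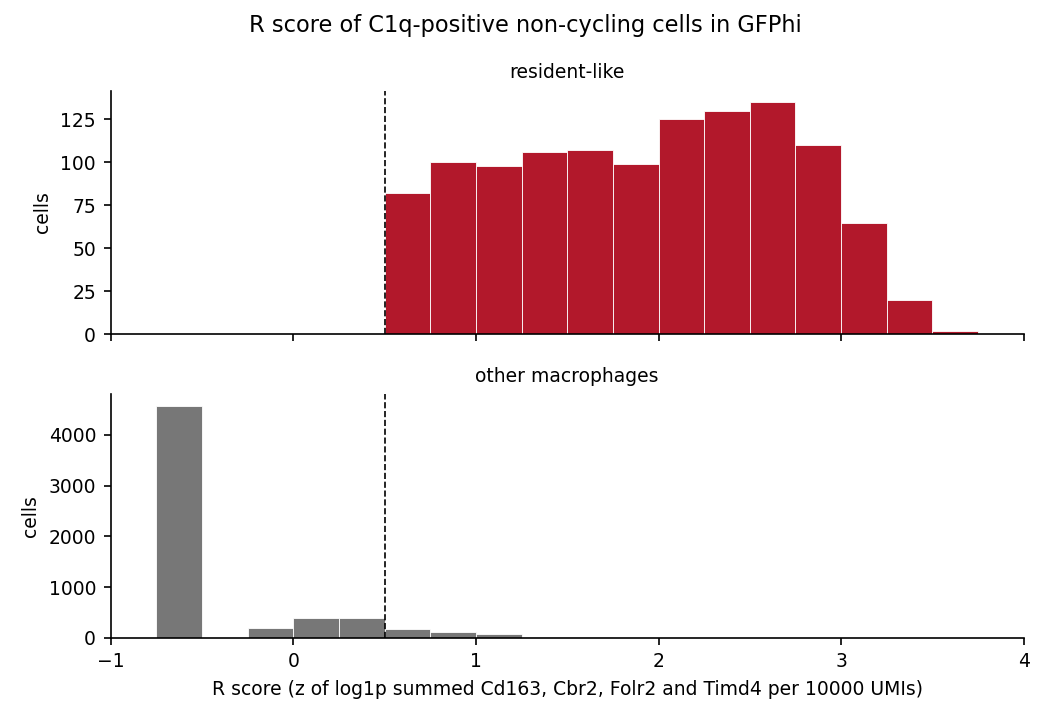
Number of GFPhi macrophages (y axis) by R score in bins along the x axis (no unit, a z score), members above and other macrophages below, with a dashed line at the threshold of 0.5. Members fill the range up to 3.56 without a separate peak at the threshold, and most other macrophages sit in 1 bin below 0, which holds the value of a cell with no UMI of the 4 genes.

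The resident label was checked against 19 further measured genes of resident macrophages that the rule did not use. Of these, 18 were at least 1.5-fold higher in members, none was lower, and the median log2 ratio was 2.57. Over all genes with at least 10 CPM in either group, 20.7% were at least 1.5-fold higher and 4.05% at least 1.5-fold lower, with a median log2 ratio of 0.23, so the typical gene was slightly higher in members. The same background holds for every gene list below. Since the members were chosen by RNA of the same cells, these counts describe the members and do not test the label.

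Lyve1 (chromosome 7, 110850607 to 110863239, minus strand), the hyaluronan receptor, stood at 348 CPM in members and 3.93 CPM in other macrophages, 88.5-fold higher (76.0 to 104). It was detected in 449 members, and after thinning in 19.6% of members, 0.227% of other macrophages and 14.7% of endothelial cells, which also express it. Vsig4, a receptor for C3 fragments, was 130 CPM in members and 2.14 CPM in other macrophages, in 184 member cells. F13a1, the catalytic chain of coagulation factor XIII, was 1232 CPM in members and 55.9 CPM in others, 22.0-fold higher (21.1 to 23.0), and was detected in 953 members. Mrc1, the mannose receptor CD206, was 936 CPM in members and 126 CPM in others, Gas6, the bridge between dying cells and Mertk, 289 CPM in members and 58.6 CPM in others, and Pf4, a platelet chemokine also made by tissue macrophages, 3035 CPM in members and 510 CPM in others. Cd209f, a C-type lectin, had 116 UMIs in 19 members, 31 of them in 1 cell, and 0 UMIs in other macrophages, at least 199-fold higher against 3 counts over that group. The Cd209 genes are close copies of one another, and the labels do not say how reads shared between them were counted.

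Igf1 was the exception among the resident genes, at 421 CPM in members and 489 CPM in other macrophages (ratio 0.861, 0.831 to 0.892). Its level in members lay between the M group, at 201 CPM, and the G group, at 636 CPM. Ccr2, the monocyte receptor, was 43.9 CPM in members and 65.2 CPM in other macrophages (ratio 0.674, 0.604 to 0.750). Members were thus below the M group, at 216 CPM, but above the L group, at 11.0 CPM, and the G group, at 12.4 CPM. Of 6 measured monocyte genes, 3 were at least 1.5-fold higher in members and none lower: Fn1 (479 CPM in members and 122 CPM in others), Thbs1 (89.6 CPM in members and 29.4 CPM in others) and Plac8 (12.3 CPM in members and 3.37 CPM in others). The median log2 ratio of that list was 0.87, although its summed level was 2845 CPM in members and 2801 CPM in others, and the median was 0.17 once cells with 3 or more UMIs of other cell types were left out. Of the members' 4173 Fn1 UMIs, 3055 lay in 102 cells, described below as subgroup 4, as did 502 of their 780 Thbs1 UMIs. Without those cells Fn1 was 147 CPM in members and 122 CPM in others, and 1 of the 6 monocyte genes was at least 1.5-fold higher and 2 lower. Ly6c2, which marks inflammatory monocytes, had 2 UMIs in members (0.230 CPM) and 97 in other macrophages (2.17 CPM).

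**Figure D2:**
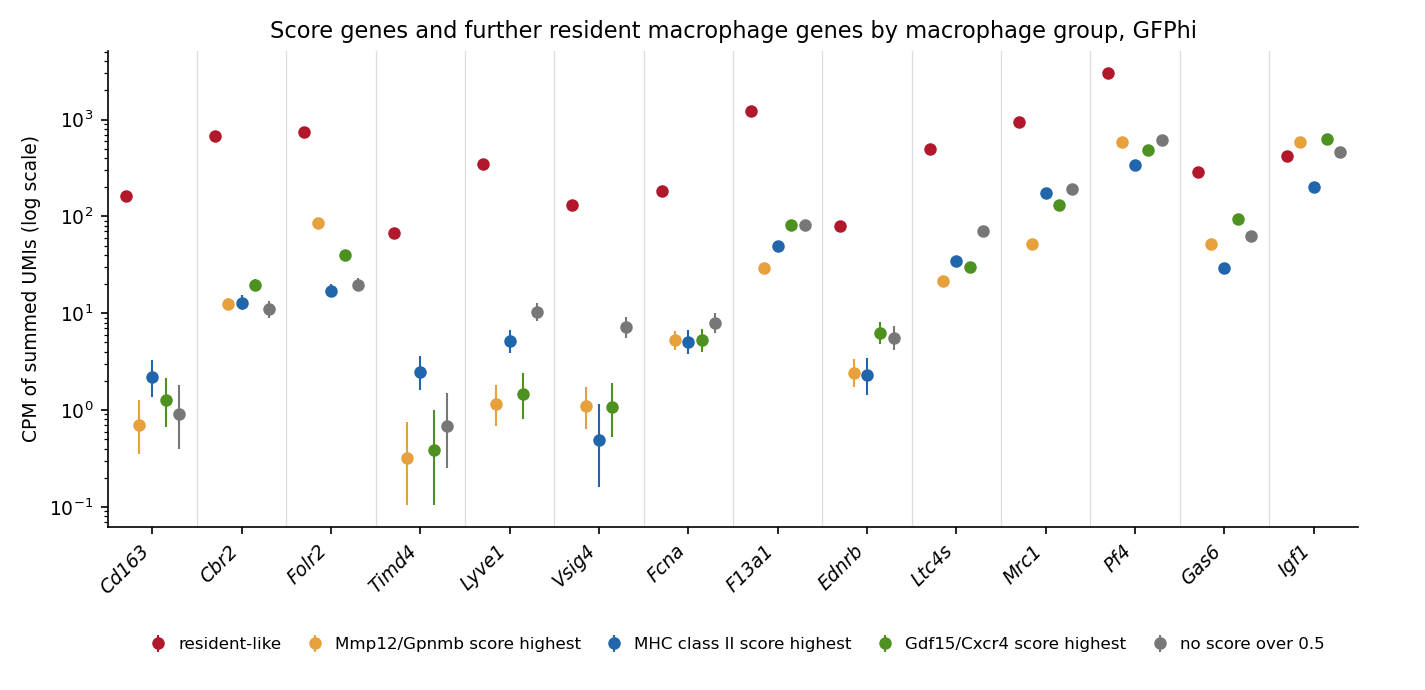
Level of each gene (CPM, log scale) in members and in the other macrophages split by their highest score; points are sums over all cells of a group in the GFPhi library and bars are exact 95% Poisson intervals, often smaller than the point. Each gene except Igf1 was highest in members; for Igf1 members, at 421 CPM, lay inside the range of the other groups.

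Across the transcriptome, 2750 genes reached 50 CPM in members or other macrophages. Of these, 202 (7.35%) were at least 2-fold higher in members and 57 (2.07%) at least 2-fold lower, and the median log2 ratio of the 2750 genes was 0.11. Since the rule chose the members on this contrast, nothing is read from these counts. Beside Lyve1, Vsig4 and F13a1, the genes with the largest ratios included Fcna, encoding the lectin ficolin A, at 183 CPM in members and 5.76 CPM in others (31.7-fold). Of the 1592 Fcna UMIs of members, 657 lay in subgroup 4, described below, and without that subgroup Fcna was 21.3-fold higher. Cp, the copper oxidase ceruloplasmin, was 62.1 CPM in members and 2.79 CPM in others (22.3-fold), and Ednrb, an endothelin receptor, 79.5 CPM in members and 3.91 CPM in others (20.3-fold). Among the genes with the largest ratios were the leukotriene enzymes Alox5 (57.1 CPM in members and 4.24 CPM in others, 13.5-fold) and Ltc4s (498 CPM in members and 36.1 CPM in others, 13.8-fold). Of the 4334 Ltc4s UMIs of members, 1609 lay in subgroup 4, and without that subgroup Ltc4s was 9.91-fold higher. The ETS transcription factor Etv1 was 52.6 CPM in members and 3.33 CPM in other macrophages, 15.8-fold higher. Saa3, an acute phase protein, was 404 CPM in members and 24.1 CPM in others, but 935 of its 3514 UMIs lay in 1 member, and without that cell it was 12.3-fold higher; 2565 of the UMIs lay in subgroup 4, described below, and without it the ratio was 5.16. After thinning, Cp was detected in 5.89% of members, 0.420% of others and 9.54% of endothelial cells, Ednrb in 6.50% of members, 0.332% of others and 6.81% of endothelial cells, and Saa3 in 7.45% of members, 1.73% of others and 12.5% of endothelial cells. The 5 endothelial markers summed to 18.0 CPM in members and 20.5 CPM in others, and none reached 10 CPM in either group. The part of endothelial RNA in the levels of Cp, Ednrb and Saa3 was not tested.

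Outside the genes of the rule, the largest gains in thinned detection in GFPhi members over others were in Pf4, F13a1, Ifi27l2a, Mrc1 and Ifitm3. Mitochondrial, ribosomal protein, haemoglobin and predicted genes were also passed over. Pf4 was detected in 78.2% of members and 25.5% of other macrophages, and F13a1 in 56.7% of members and 4.97% of others. Ifi27l2a was detected in 68.3% of members and 27.4% of others, Mrc1 in 52.1% of members and 12.6% of others, and Ifitm3 in 64.9% of members and 29.3% of others. Ifi27l2a and Ifitm3 are interferon-inducible genes. Endothelial cells also held Ifitm3, in 71.7% of cells, and Ifi27l2a, in 36.5%.

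Among lower genes, some differences lay with particular groups. Npy, a neuropeptide, was 12.6 CPM in members and 110 CPM in other macrophages, mostly through the L group, at 269 CPM, and was 14.3 CPM in the M group. Fabp5, a fatty acid binding protein, was 887 CPM in members and 3228 CPM in others, with 836 CPM in the M group and 6265 CPM in the L group. Il7r, the interleukin 7 receptor chain, was 26.0 CPM in members and 125 CPM in others and stood at 56.4 to 221 CPM in each of the other 4 groups. Slamf7, an activation receptor, was 34.6 CPM in members and 111 CPM in others (ratio 0.311, 0.276 to 0.349), against 81.2 to 124 CPM in the other groups, and Apbb2, an adaptor protein, 12.1 CPM in members and 51.8 CPM in others, against 46.8 to 56.2 CPM. Slamf7, Apbb2 and Il7r were thus lower in members than in each of the other 4 groups, whereas Fabp5 in the M group and in cells with no high score, at 885 CPM, was near the members' level. Cd74, the MHC class II invariant chain, at 971 CPM in members and 3920 CPM in others, belongs with genes the M score used, and the members' level lay above that of the cells with no high score, at 448 CPM. Igha headed the lower genes, at 0.574 CPM in members and 75.2 CPM in others, but 1 other macrophage held 3335 of its 3367 UMIs in that group.

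Ccl8 (chromosome 11, 82115185 to 82116799, plus strand), the chemokine of the study's title, was 1566 CPM in members (1539 to 1592) and 163 CPM in other macrophages, 9.63-fold higher (9.36 to 9.91), a log2 ratio of 3.27. The order of the other groups was the G group at 279 CPM, cells with no high score at 179 CPM, the M group at 111 CPM and the L group at 110 CPM, the last pair within each other's counting error; cycling C1q-positive cells had 223 CPM. Lymphocytes had 8.51 CPM and endothelial cells 6.27 CPM. Members, 11.6% of the GFPhi cells, held 13630 of the 23069 Ccl8 UMIs of the library, 59.1% (58.5 to 59.7%).

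Ccl8 was not a gene of every member. It was detected in 638 members (54.1%) and in 22.0% of other macrophages, and after thinning in 34.3% of members, 8.53% of other macrophages, 2.08% of lymphocytes and 1.09% of endothelial cells. The tenth of members with the most Ccl8 UMIs held 71.9% of the members' total, while the highest single cell held 265 UMIs, or 1.94%. The level was thus not carried by 1 cell, but a minority of the members held most of the Ccl8 UMIs.

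Other chemokines differed in both directions. Of 18 measured, 9 were at least 1.5-fold higher in members and 5 lower. The ligands of the monocyte receptor Ccr2 were higher in members. Ccl7 stood at 1241 CPM in members and 232 CPM in others (5.36-fold), Ccl12 at 959 CPM in members and 242 CPM in others (3.97-fold) and Ccl2 at 1169 CPM in members and 424 CPM in others (2.76-fold). Ccl24, an eosinophil attractant, was 78.9 CPM in members and 4.42 CPM in others (17.8-fold, 15.2 to 21.01), and the Ccr1 ligands Ccl6 and Ccl9 were 5.56-fold and 3.01-fold higher. Without the members of subgroup 4, described below, Ccl6 was 3.55-fold higher. Their receptor Ccr1 was itself 78.9 CPM in members and 13.7 CPM in other macrophages. Cxcl13, the B cell attractant, was 43.0 CPM in members and 0.871 CPM in others but came from 24 members only, with 214 of its 374 UMIs in that subgroup, and was 24.1-fold higher without it.

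The chemokines Ccl4, Ccl3 and Ccl5 were lower in members. Ccl4 was 1897 CPM in members and 3965 CPM in other macrophages (ratio 0.478), Ccl3 504 CPM in members and 816 CPM in others (0.617) and Ccl5 25.6 CPM in members and 81.7 CPM in others (0.313). The L group was nearest to members for Ccl4, at 2329 CPM, and below them for Ccl3, at 386 CPM. Cxcl16, the membrane-bound ligand of Cxcr6, was 283 CPM in members and 509 CPM in others, and Cxcl10, which attracts activated T cells through Cxcr3, 165 CPM in members and 240 CPM in others. The neutrophil attractant Cxcl2 was 2576 CPM in members and 2585 CPM in others, a ratio of 0.997 (0.983 to 1.01). Members held 33.9% of the Ccl7 UMIs of GFPhi, 35.7% of Ccl12 and 21.2% of Ccl2, lower shares than for Ccl8.

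**Figure D3:**
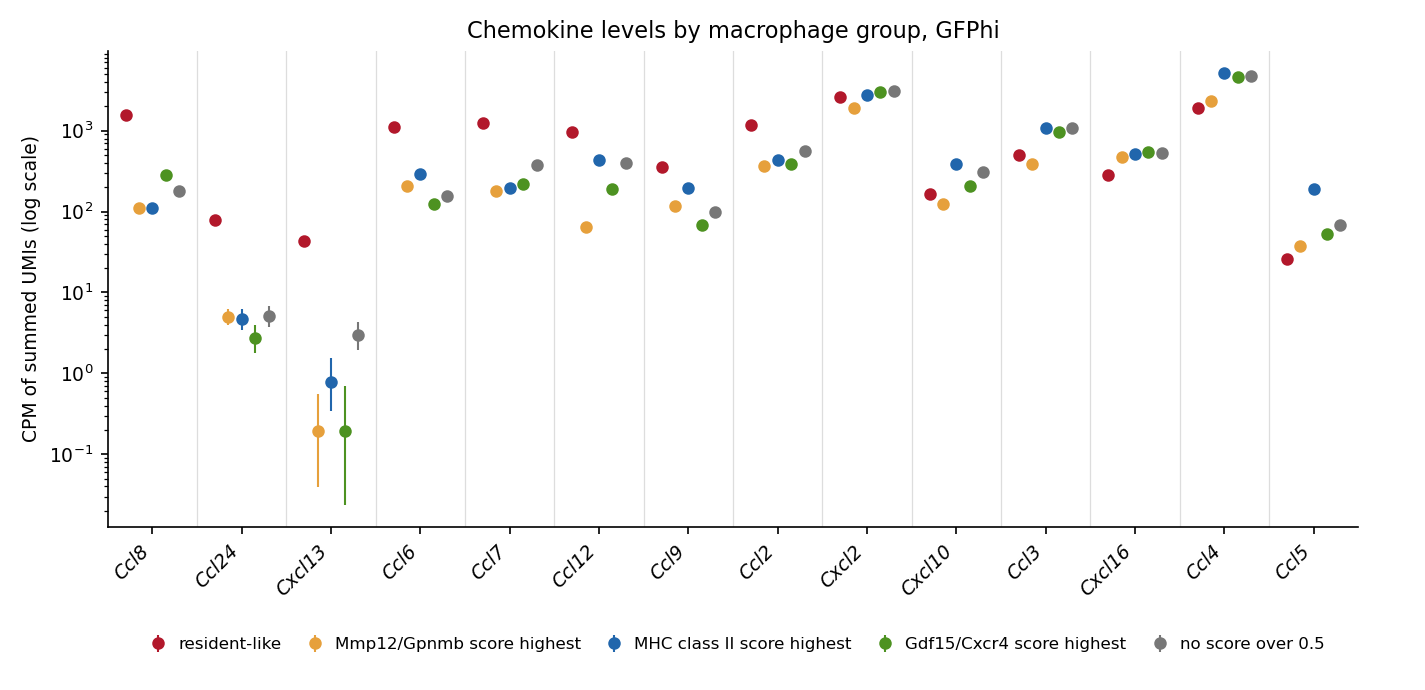
Level of chemokine genes (CPM, log scale) in members and in the other macrophages split by their highest score; points are sums over the cells of a group in GFPhi and bars exact 95% Poisson intervals. From Ccl8 to Ccl2 the members stand above the other 4 groups, whereas for Cxcl16, Ccl4 and Ccl5 they stand lowest.

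Uptake and complement genes were mostly higher in members. Of 14 measured scavenger and endocytic receptors, 10 were at least 1.5-fold higher and 1, Sorl1, lower. Colec12, a scavenger receptor for oxidised lipoprotein, was 105 CPM in members and 9.60 CPM in others (10.9-fold), Clec10a, a galactose lectin, 105 CPM in members and 17.8 CPM in others, Fcgrt, the neonatal Fc receptor, 462 CPM in members and 150 CPM in others, and Msr1, scavenger receptor A, 215 CPM in members and 98.9 CPM in others. Marco, a receptor for bacteria and particles, was 41.8 CPM in members and 0.737 CPM in others in only 34 members, and 338 of its 364 UMIs lay in subgroup 4, described below; without it Marco was 3.41 CPM in members, 4.63-fold higher (2.66 to 7.98). Of 10 complement genes, 7 were higher and none lower. C4b, a C4 chain of the classical and lectin pathways, stood at 238 CPM in members and 14.9 CPM in others (15.9-fold). The alternative pathway genes were also higher, with properdin (Cfp) at 290 CPM in members and 60.2 CPM in others and factor B (Cfb) at 36.5 CPM in members and 8.55 CPM in others. C4b has a near-identical copy, C4a, so its reads may have been split. C3 itself was 32.4 CPM in members and 30.5 CPM in others.

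Efferocytosis, the uptake of dying cells, was mixed: of 17 genes 5 were higher and 6 lower, with a median log2 ratio of -0.31, although their summed level was higher, at 2465 CPM in members and 2039 CPM in others. Higher were the bridge proteins Gas6 and Pros1 (58.1 CPM in members and 19.8 CPM in others), the receptors Stab1 (524 CPM in members and 158 CPM in others) and Mertk (158 CPM in members and 94.1 CPM in others), and Dock1. Lower were the bridge protein Mfge8 (14.6 CPM in members and 57.9 CPM in others), the lipid receptor Cd300lf (18.7 CPM in members and 47.9 CPM in others), Pparg, Havcr2, Anxa1 and Itgav. For Mfge8 the L group stood at 134 CPM and the remaining groups of others at 14.1 to 21.7 CPM. Axl, the sister receptor of Mertk, was 40.0 CPM in members and 56.4 CPM in others.

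Iron handling also held opposite movements. Of 12 genes, 5 were higher and 2 lower, and the median log2 ratio was 0.37, while the summed level was lower, at 26681 CPM in members and 43149 CPM in others. Most of the sum came from the ferritin chains. Fth1 was 12000 CPM in members and 20865 CPM in others, and Ftl1 12812 CPM in members and 20884 CPM in others. Both were highest in the L group, with Fth1 at 26883 CPM and Ftl1 at 29685 CPM. Some transport genes were higher, with the transferrin receptor Tfrc at 15.4 CPM in members and 5.79 CPM in others, transferrin (Trf) at 409 CPM in members and 190 CPM in others and the iron exporter Slc40a1 at 43.3 CPM in members and 19.4 CPM in others. Slc40a1 in members was level with the G group, at 44.9 CPM. The iron transporter Slc11a1 (96.7 CPM in members and 122 CPM in others) and the haem transporter Slc48a1 (95.45 CPM in members and 98.0 CPM in others) were not higher. Hmox1, which breaks down haem after uptake through Cd163, was 573 CPM in members and 521 CPM in others, a ratio of 1.10 (1.07 to 1.13).

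Lipid and lysosome genes were lower: of 19, 12 were lower and none higher, with a median log2 ratio of -0.76. Lgals3, galectin-3, was 1543 CPM in members and 4533 CPM in others, Fabp4 73.6 CPM in members and 215 CPM in others, Spp1, osteopontin, 972 CPM in members and 1878 CPM in others and Trem2, a lipid receptor, 817 CPM in members and 1391 CPM in others. Because the L score used Gpnmb and Atp6v0d2 of the same programme, cells rich in these genes had been assigned elsewhere. Apoe, at 17197 CPM in members and 18688 CPM in others, did not pass 1.5-fold. Of 8 further genes of the MHC class II pathway, 5 were lower and 2 higher. The higher genes were the costimulators Cd86 (221 CPM in members and 122 CPM in others) and Cd80. Cells with M as highest score were likewise not members, but 150 members had M over the score threshold as well. The part of the rule in the MHC class II list was not tested either.

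Among cytokines, members held more Il10, the anti-inflammatory cytokine, at 68.2 CPM in members and 23.7 CPM in others (2.88-fold, 2.60 to 3.18), and less Il1b (317 CPM in members and 742 CPM in others) and Tnf (259 CPM in members and 564 CPM in others). Of the 15 genes of that list 3 were higher and 3 lower. The interferon response list had 9 of 13 genes higher and none lower, led by Ifi27l2a (2421 CPM in members and 457 CPM in others). Among them was the transcription factor Irf7 (79.3 CPM in members and 43.3 CPM in others). Isg15 (170 CPM in members and 180 CPM in others), Rsad2 and Ifit2 did not pass 1.5-fold, and Ifnb1, interferon beta, was 31.4 CPM in members and 89.8 CPM in others. Arg1, which breaks down arginine and marks alternative activation, was 246 CPM in members and 28.6 CPM in others (8.62-fold), in 208 members. Of its 2145 UMIs, 1759 lay in subgroup 4, described below, and without it Arg1 was 50.6 CPM in members, 1.77-fold higher (1.58 to 1.99). Bmp2, a growth factor, was 54.6 CPM in members and 5.74 CPM in others (9.505-fold, 8.15 to 11.1).

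Of 25 transcription factors of macrophages, 9 were higher and 3 lower, or 6 higher and 4 lower without subgroup 4. Maf was 497 CPM in members and 122 CPM in others (4.09-fold, 3.93 to 4.25), and Klf2 458 CPM in members and 171 CPM in others, each known in tissue macrophages. Mef2c was 286 CPM in members and 122 CPM in others, and Klf4 320 CPM in members and 157 CPM in others. Spi1, which encodes PU.1, at 427 CPM in members and 438 CPM in others, did not pass 1.5-fold. Atf3, a stress-induced repressor, was lower, at 616 CPM in members and 1143 CPM in others.

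**Figure D4:**
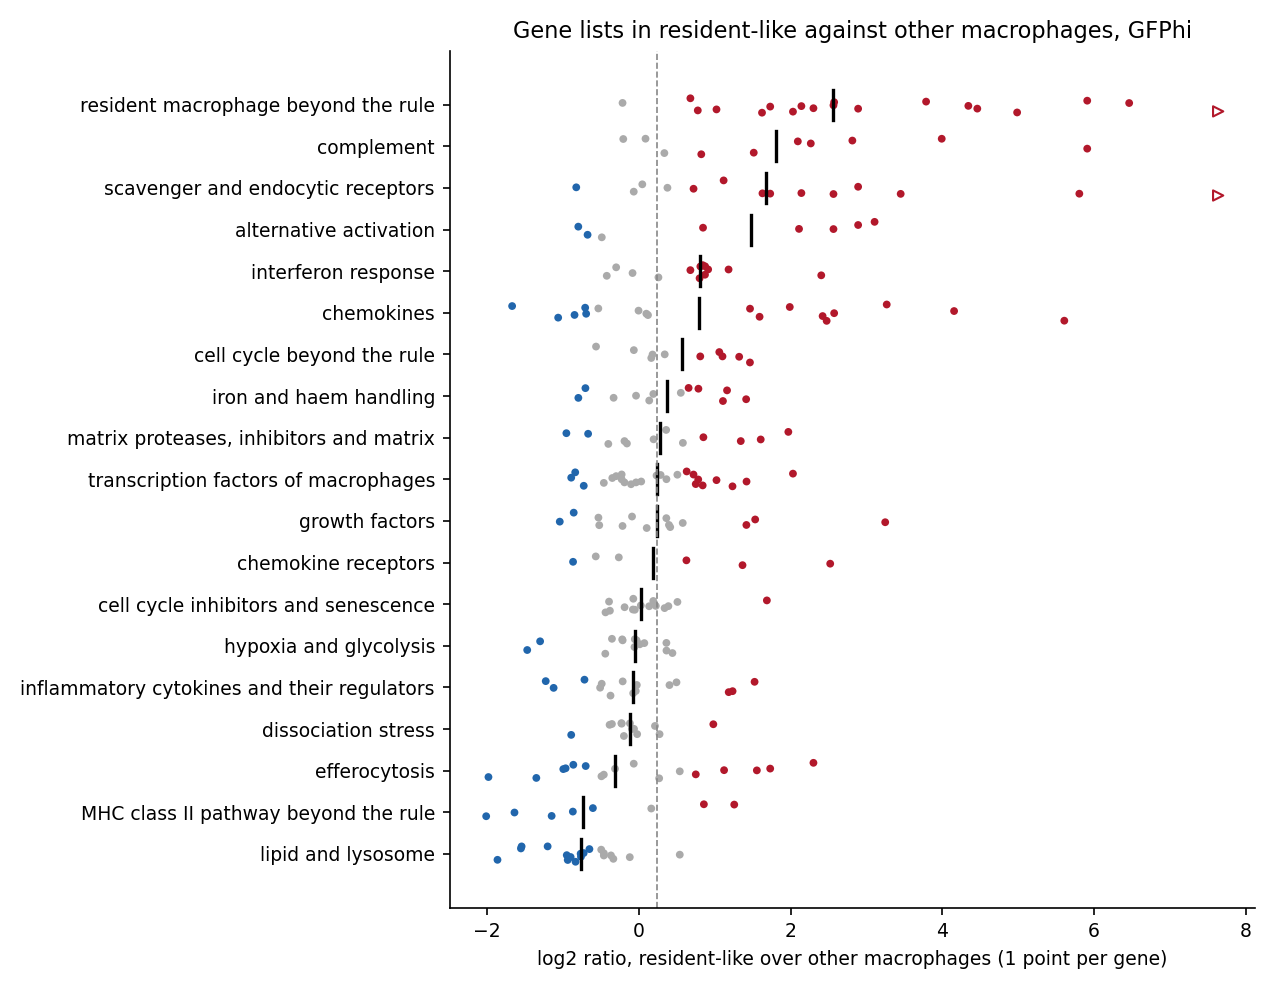
Log2 ratio of members over other macrophages in GFPhi (x axis) for each measured gene of the gene lists (y axis), in red at least 1.5-fold higher, in blue at least 1.5-fold lower, with the list median as a black bar and the median of all measured genes, 0.23, as a dashed line. The open triangles are Cd209f at its lower bound. Resident, complement and scavenger lists lie to the right, lipid and lysosome and MHC class II lists to the left, and the last 2 include programmes used by the rule.

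The p16 gene and the reporter were read separately, since the sort was made on the reporter. Cdkn2a had 32 UMIs in 17 members (1.44% of them), 3.68 CPM, against 22 UMIs and 0.491 CPM in other macrophages, a ratio of 7.48 (4.21 to 13.5). Cells with no high score held 16 of those 22 UMIs, the L group 4, the M group 2 and the G group 0, and cycling C1q-positive cells had 33 UMIs (4.55 CPM), a level close to that of members. Members held 15.0% of the 214 Cdkn2a UMIs of GFPhi (10.5 to 20.4%), and 9.57% of the UMIs of all genes in that library. After thinning, Cdkn2a was found in 0.0867% of members and 1.04% of lymphocytes, 1 cell of each. The mGFP transcript was 33.5 CPM in members and 30.9 CPM in others (ratio 1.09, 0.954 to 1.23). Thinned detection of mGFP was 2.77% in members, 3.44% in other macrophages and 8.17% in endothelial cells, and CreERT2 had 1 UMI in members. The stretch of the reporter that mGFP reads were assigned to is not stated in the labels. Cdkn1a, encoding the cell cycle inhibitor p21, was 672 CPM in members and 708 CPM in others (0.9502, 0.924 to 0.977), below the M group, G group and cells with no high score and above the L group. Of 15 genes of cell cycle inhibition and senescence, 1 was higher, Igfbp4 (226 CPM in members and 70.2 CPM in others), and none lower.

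Markers of other cell types were looked for in members, since doublets had not been removed. Endothelial markers summed to 157 UMIs in members, and neutrophil markers to 39.7 CPM in members and 40.4 CPM in others with Retnlg at 0 in members. T and NK markers had 4 UMIs in members, with Trac and Nkg7 at 0, and B cell markers 12.4 CPM in members and 11.9 CPM in others. Cardiomyocyte markers summed to 12.98 CPM in members (113 UMIs) and 6.86 CPM in others, with none of the 5 genes at 10 CPM in either group, and mesothelial markers to 26.1 CPM in members and 28.8 CPM in others. Fibroblast markers summed to 280 CPM in members and 377 CPM in others, with Col1a1 and Col3a1 lower in members. General macrophage markers were present, with 3 of 9 higher, the colony stimulating factor receptor Csf1r (541 CPM in members and 290 CPM in others), C5ar1 and Mertk, and none lower. The 4 erythroid genes were higher, at 324 CPM in members and 2.90 CPM in others, but 1 member held 1389 of the 1407 Hbb-bs UMIs of members. The part of these other cells in the results was not tested beyond leaving such cells out.

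Members were not uniform. They were divided by k-means on 15 principal components of 1000 variable genes into 5 subgroups, a number chosen after the data were seen. All genes of the rule, namely the 13 score genes, the C1q genes and the cycling genes, were left out of the input. So were chemokines and their receptors, cell cycle inhibition and senescence genes, the reporter and CreERT2. Mitochondrial, ribosomal protein, haemoglobin and predicted (Gm) genes were left out as well. The leading genes describe the division, and the genes left out of it were read beside them. The 423 members of subgroup 1 (35.9%) were led by Vcam1, the early response genes Btg2, Jun, Egr1 and Nr4a3, and Il10, with dissociation stress genes at 14922 CPM. Vcam1 was detected in 20.1% and Il10 in 14.2% of the cells of subgroup 1, against 97.4% for Btg2. The 343 members of subgroup 2 were led by Il7r (in 23.6% of its cells) and Spp1 (2280 CPM, in 81.3%). Gpnmb was 336 CPM in subgroup 2, and 72 of its cells also had an L score over 0.5. The 306 members of subgroup 3 were led by Cmah, Lyve1 (948 CPM) and the lectin Mgl2 (452 CPM), with F13a1 at 2882 CPM, and its stress genes summed to 4705 CPM. The 102 members of subgroup 4 were led by Marco (312 CPM), Arg1 (1624 CPM, in 89.2% of its cells), Padi4 and Fn1 (2821 CPM). Marco was detected in 22.55%, Padi4 in 38.2% and Fn1 in 95.1% of the cells of subgroup 4. The 5 cells of subgroup 5 had a median of 22318 UMIs, and in them fibroblast markers summed to 16023 CPM and mesothelial markers to 1339 CPM; without these 5 cells the Ccl8 log2 ratio was 3.28.

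The genes left out of the division differed among these subgroups. Ccl8 was 3011 CPM in subgroup 1, detected in 67.1% of its cells, against 871 CPM in subgroup 2, 1595 CPM in subgroup 3 and 163 CPM in subgroup 4. Subgroup 1 held 57.9% of the members' Ccl8 UMIs and stood 3.19-fold above the other members (3.08 to 3.30). The stress genes that were high in the same cells are given above; their part in the Ccl8 level was not tested. Ccl6 had another pattern, at 3893 CPM in subgroup 4, which held least Ccl8 of the 4 larger subgroups. Cd163 was 355 CPM in subgroup 3 and 27.6 CPM in subgroup 2, and Timd4 160 CPM in subgroup 3 and 127 CPM in subgroup 4. Ccr2 was 66.8 CPM in subgroup 1 and 6.24 CPM in subgroup 3. Of the 32 Cdkn2a UMIs of members, 20 lay in 11 cells of subgroup 3 and 9 in 3 cells of subgroup 4. With 4 or 6 subgroups asked for, Ccl8 again differed widely, from 161 CPM to 3039 CPM among 4 subgroups and from 90.0 CPM to 3872 CPM among 6.

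**Figure D5:**
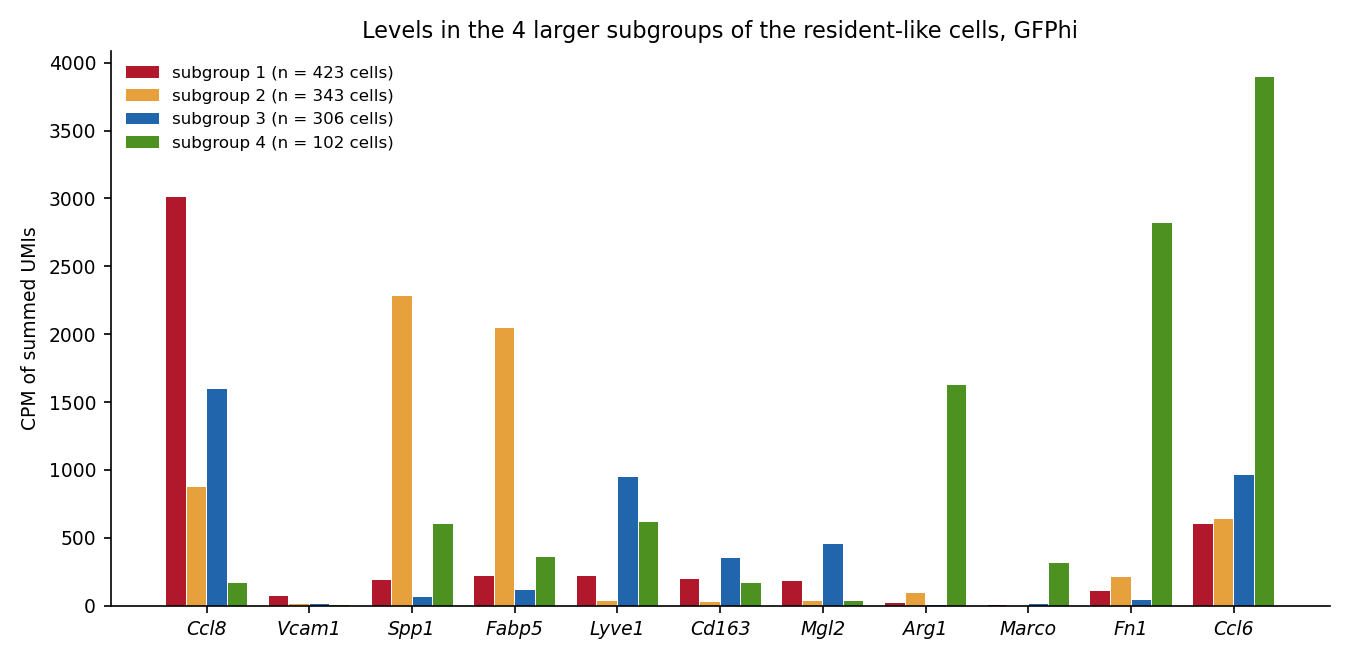
Level of each gene (CPM, linear axis from 0) in the 4 larger subgroups of the GFPhi members, summed over the cells given in the legend. Ccl8 was highest in subgroup 1 (3011 CPM), Spp1 and Fabp5 in subgroup 2, Lyve1, Cd163 and Mgl2 in subgroup 3, and Arg1, Marco, Fn1 and Ccl6 in subgroup 4.

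Ordering the members by R score gave a further description of the range. In the 393 members with the lowest, the 393 with the middle and the 393 with the highest scores, Lyve1 was 29.0, 235 and 859 CPM, and F13a1 347, 1047 and 2510 CPM. Ccl8 followed the same order, at 480, 1893 and 2515 CPM, and so did Mrc1, Gas6 and Maf. The order was reversed for Spp1, at 1721, 936 and 105 CPM, and for Lgals3, Fabp5 and Ccl4, so members with a low R score carried more of the genes that the L group holds. Arg1 was highest in the middle, at 272, 355 and 94.7 CPM. Interferon response genes summed to 2451, 3603 and 5004 CPM, and median depth was 7463, 6405 and 6170 UMIs in the same order.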

How the data were processed

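The data were raw UMI counts per gene and barcode, in 1 deposited matrix for each of GFPhi and GFPlo; every count was a whole number and none was altered before use. The kit was SeekOne 3′ in the protocol text of the labels and 10x Genomics in their description; the build is mm10, per the submitters' processing notes. Aligner, counter and cell calling: not given in the sources used here. Positions came from GENCODE vM21.

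Barcodes were kept from 300 genes and 500 UMIs upward and up to 20% mitochondrial UMIs, and no doublets were removed. UMIs were summed over the cells of a group and scaled to CPM. Ratios carry exact conditional binomial intervals, levels exact Poisson intervals and shares Clopper-Pearson intervals, all at 95%. A gene was compared with at least 50 CPM in either group and 20 UMIs in all, and counted from 2-fold. A list gene was measured at 10 CPM in either group, with a prior count of 0.5, and counted from 1.5-fold. Shares of cells were compared after thinning each cell to 1000 UMIs. Lymphocytes had at least 3 UMIs of T and B cell receptor complex genes and endothelial cells at least 5 UMIs of endothelial genes, both below the C1q minimum. Levels are not comparable between genes.

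The genes named were the 13 score genes, Ccl8, Cdkn2a, Cdkn1a, mGFP, CreERT2, Lyve1, Mrc1, F13a1, Gas6 and Ccr2; the 12 genes in each direction whose interval lay farthest from 1; the 2 most extreme on each side of each list; and the 5 with the largest gain in thinned detection. Any further gene was picked with its values in view. The members and lists were chosen with earlier results of these data known. Intervals were tested on simulated Poisson sums, which carry counting error only and no clumping of UMIs in single cells. Thinning was checked on member cells, for the total of each cell only. The work used Python 3.11.15, numpy 2.4.6, pandas 2.3.3, scipy 1.17.1 and scikit-learn 1.9.0. Some genes counted in the lists are not reported by name here.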

Additional observations from a re-analysis of the deposited data

How the results depend on the processing

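The log2 ratio of Ccl8 in members over other macrophages was 3.27, and 3.19 with a C1q minimum of 60, 3.13 and 3.38 with R thresholds of 0 and 1, 3.14 as a mean over cells, 3.44 without the members of subgroup 4, 3.16 with median-of-ratios scaling, which moves the median gene by 0.11, and 3.21 without cells holding 3 or more UMIs of other cell types. The member share of GFPhi macrophages was 18.7% and 13.97% at thresholds of 0 and 1, and 17.9% without cells having 2 or more scores over 0.5. At a minimum of 10 CPM, 530 genes were at least 2-fold higher and 112 lower; in the other settings 160 to 245 were higher and 46 to 77 lower. All 160 higher genes of the median-of-ratios scaling were among the 202. Of the checks of 97 gene results, 972 stayed inside the interval of the main result, 381 left it and 5 reversed. Of the checks of 27 list results, 327 medians kept their place relative to 1.5-fold and 14 did not. The member share, the gene counts and the Ccl8 ratio stayed within their limits in 44 checks and moved in 12. Those limits were the main interval, or 1.5-fold for the counts. The reversed results were those of 3 genes. The gene Hba-a2 had a log2 ratio of 6.56, and -0.0175 without cells having 2 or more high scores, -0.56 without the cells holding UMIs of other cell types and -0.0679 without the member richest in it. The gene Igha had -6.895, and 0.12 without those cells. The gene Il6, with 94 UMIs in members, had 1.23, and -0.52 without subgroup 4. The median of the monocyte list was 0.87, 0.05 without subgroup 4, and 0.12 to 0.19 after thinning, as a mean over cells or without those cells. Leaving out the richest member, the smallest subgroup, subgroup 4 or shared barcodes was chosen after seeing the data. No paired analysis was possible because each fraction is 1 library. The 48 GFPlo macrophages limit any statement on members there, and the rarely detected genes (Cdkn2a, Timd4, mGFP) are limited by depth per cell.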

Other observations

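Members with a Timd4 UMI after thinning to 1000 UMIs (75 cells) were set beside those without one (1079 cells). Lyve1 was 1067 CPM (846 to 1328) in cells with Timd4 and 283 CPM (252 to 316) in cells without, F13a1 3240 CPM with and 1360 CPM without, and Vsig4 307 CPM (194 to 460) with and 102 CPM (83.8 to 123) without. Ccl8 ran the other way, at 907 CPM (704 to 1149) with Timd4 and 1656 CPM (1580 to 1735) without, whereas Ccl6 was 1533 CPM with and 873 CPM without. Ccl4 was 893 CPM with and 1804 CPM without, and Fabp5 187 CPM with and 694 CPM without. Ccr2 was 13.3 CPM (0.338 to 74.3) in cells with Timd4, from 1 UMI, and 44.5 CPM (32.8 to 59.0) in cells without, from 48 UMIs. These 2 intervals overlapped. Timd4 was part of the rule and all cells are from 1 library, so these values are a description.

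Of the 505 cycling C1q-positive cells of GFPhi, which the rule leaves out, R was the highest score in 153 (30.3%, 26.3 to 34.5%). These cycling cells had a median of 13332 UMIs, against 6605 in members. Their share is therefore not set against the member share of macrophages. Among members themselves, 5 of 10 measured cell cycle genes were at least 1.5-fold higher than in the other macrophages (others) and none lower, led by Ccnd1, cyclin D1 (213 CPM in members and 77.1 CPM in others), and the replication licensing gene Mcm2 (12.98 CPM in members and 5.20 CPM in others). Of 6 chemokine receptors, 3 were higher, among them the chemerin receptor Cmklr1 (60.9 CPM in members and 23.6 CPM in others), and 1 lower, Ccrl2 (215 CPM in members and 393 CPM in others). Over all measured genes, 20.7% were at least 1.5-fold higher and 4.05% lower, the background of each list in this paragraph. Of 14 growth factors and their receptors, 3 were higher, a share near that background, and 2 lower. Nrp1, a semaphorin and VEGF receptor, was 250 CPM in members and 86.5 CPM in others. The lower genes were Gdf3 (41.9 CPM in members and 86.5 CPM in others) and Pdgfa (33.4 CPM in members and 60.7 CPM in others). Of 12 matrix and protease genes, 4 were higher (1 without the members of subgroup 4) and 2 lower, the membrane protease Mmp14 (53.2 CPM in members and 103 CPM in others) and Adam8 (58.8 CPM in members and 93.6 CPM in others). Of 14 hypoxia and glycolysis genes, none was higher and 2 lower, Hilpda, a lipid droplet protein (67.4 CPM in members and 166 CPM in others), and Ndrg1 (20.6 CPM in members and 57.2 CPM in others). Of 13 dissociation stress genes, 1 was higher, Hspa1b (18.3 CPM in members and 9.27 CPM in others), and 1 lower, Atf3, and their summed level was 9750 CPM in members and 11425 CPM in others. Of 8 alternative activation genes, 5 were higher and 2 lower, Cd300a (120 CPM in members and 209 CPM in others) and Socs1 (7.01 CPM in members and 11.3 CPM in others).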
